A study of Mus musculus with 6 samples.

Results

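The 10 genes described here handle iron in the cell: Fth1 and Ftl1 store it, Tfrc, Slc11a1 and Slc11a2 bring it in or release it from vesicles, Slc40a1 exports it, Ncoa4 and Ireb2 act on ferritin and on iron-dependent RNA control, and Steap3 and Steap4 reduce it. They were chosen by symbol from the 54532 genes of the count table. RNA was sequenced from cultured mouse bone marrow-derived macrophages of C57BL/6 animals aged 32 to 34 weeks, 3 libraries of the genotype Xbp1FL/FL (XWT) and 3 of Xbp1ΔMf (XKO). XWT cells carry Xbp1, the gene of a stress-activated transcription factor, between recombination sites. XKO cells lack it in macrophages by their label, and no source used here names the Cre driver. All 6 cultures were primed with lipopolysaccharide (LPS) and kept for 48 h in medium conditioned by hepatocytes of wild-type mice, so the effect of either treatment is not measured. The comparison asks how loss of Xbp1 in such macrophages changes their transcripts. The labels do not say that replicate libraries stem from different animals or dishes, so every p-value covers only library-to-library spread, which may be technical.

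Libraries held 28354866 to 30891729 counts, and XWT libraries varied more among themselves than XKO libraries (a chi-square of 19.3 to 21.7 per gene between pairs of XWT against 2.80 to 4.54 between pairs of XKO). Xbp1 stood at 159, 157 and 132 CPM (the count as a share of library size, scaled between libraries) in XWT and at 76.8, 79.4 and 76.5 CPM in XKO. Its count covers the whole gene and is a partial check of the labels. In bulk RNA, fewer cells that express a gene and less of its RNA per cell cannot be told apart.

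Macrophages take up iron from old red cells and from transferrin, keep it in a shell of ferritin heavy and light chains, and return it to the blood through ferroportin, the product of Slc40a1. During infection they hold iron back, which withholds it from microbes. Much of this control acts on RNA: when iron is scarce, the iron regulatory proteins, encoded by Aco1 and Ireb2, bind a hairpin called the iron-responsive element. Bound before the coding sequence, as in ferritin and ferroportin RNA, they block translation without needing a change in RNA level; bound behind it, as in transferrin receptor RNA, they protect the RNA from decay. Read counts therefore measure only part of the control of these genes.

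The hairpins that carry this control were looked for in GENCODE M21 transcripts (build GRCm38), because they divide the genes into those regulated through translation and those regulated through RNA decay. The pattern searched on the transcript strand was a C, 5 bases, the loop CAGTGN and 5 bases that can all pair with the first 5 (G with T allowed). It was found in 294 of 21901 protein-coding genes (1.34%) and in 4 of the 10 iron genes. Each is shown with the 6 loop bases in capitals, and each lies within 1 exon. The Fth1 element is in the 5′ UTR at chr19:9982732-9982761 (plus strand), that of Ftl1 in the 5′ UTR at chr7:45459778-45459807 (minus strand) and that of Slc40a1 in the 5′ UTR at chr1:45925464-45925493 (minus strand). Tfrc holds 4 in its 3′ UTR, at chr16:32631219-32631248, chr16:32631598-32631627, chr16:32631663-32631692 and chr16:32631710-32631739 (plus strand). A match describes letters, not binding, and the other genes may hold hairpins with bulges that this pattern misses.
Fth1: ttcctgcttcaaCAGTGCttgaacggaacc
Ftl1: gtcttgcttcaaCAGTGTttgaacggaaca
Slc40a1: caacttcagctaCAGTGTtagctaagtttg
Tfrc site 1: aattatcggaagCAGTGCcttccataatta
Tfrc site 2: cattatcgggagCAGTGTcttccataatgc
Tfrc site 3: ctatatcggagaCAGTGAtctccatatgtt
Tfrc site 4: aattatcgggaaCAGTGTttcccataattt

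Ferritin dominated these transcripts, and no change in its RNA between the groups was called. Fth1 (ENSMUSG00000024661, chromosome 19 from 9982703 to 9985092, plus strand), the heavy chain that oxidises iron for storage, had the highest FPKM (reads scaled to gene length and library depth, as deposited) of any gene symbol in all 6 libraries. By read count it ranked first in each XKO library and second in each XWT library, and it took 1.86% to 2.31% of all counts. Ftl1 (ENSMUSG00000050708, chromosome 7 from 45457944 to 45459884, minus strand), the light chain that helps build the iron core, took 0.426% to 0.497% of the counts. Per length, the other genes were far below. Deposited FPKM averaged 24685 ± 3480 in XWT and 22883 ± 641 in XKO for Fth1, and 3452 ± 356 and 3410 ± 135 for Ftl1 (SD, n = 3 each). Slc11a1 followed at 211 ± 12.4 and 218 ± 3.88 FPKM (SD, n = 3 each).

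**Figure D1:**
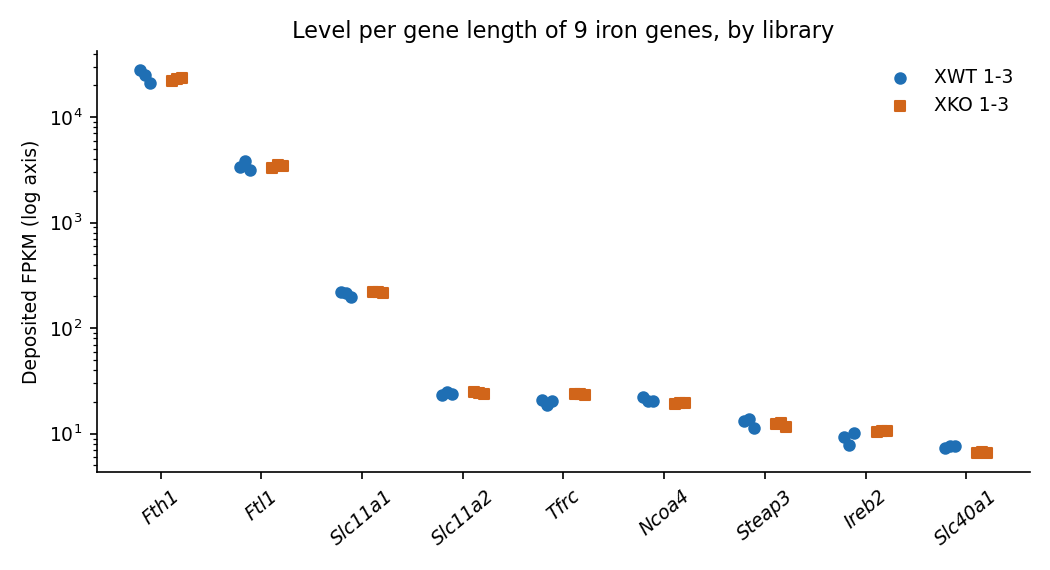
Deposited FPKM (log axis) of the 9 detected iron genes in XWT 1-3 (blue circles) and XKO 1-3 (orange squares), 1 point a library. Fth1, averaging 24685 FPKM in XWT, is highest in every library and Slc40a1, averaging 7.53, is lowest; Steap4, listed at 0 in all 6, cannot be drawn on this axis.

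The lower levels lay close together. In XWT, Slc11a2 (24.0 ± 0.92 FPKM) and Ncoa4 (21.1 ± 1.17 FPKM; SD, n = 3 each) came next in order. Tfrc followed at 18.6 to 20.8 FPKM, a range that overlapped that of Ncoa4. In XKO the order was Slc11a2 (24.3 ± 0.30 FPKM), Tfrc (23.6 ± 0.39) and Ncoa4 (19.4 ± 0.12; SD, n = 3 each), and every XKO library had more Tfrc than Ncoa4 per length. Steap3 (12.8 ± 1.33 FPKM in XWT, 12.1 ± 0.55 in XKO), Ireb2 (9.07 ± 1.16 and 10.5 ± 0.17) and Slc40a1 (7.53 ± 0.16 and 6.62 ± 0.071; SD, n = 3 each) were the lowest detected. Such an order between genes rests on the gene lengths in the authors' table.

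In CPM, Fth1 measured 24266, 21554 and 18412 across XWT 1 to 3, against 19278, 20181 and 20325 across XKO 1 to 3. The XWT values spanned the whole XKO range. Its log2 fold change of XKO over XWT was -0.10, with a 95% interval from -0.30 to 0.09 (edgeR adjusted p = 0.471). Without XWT 3, the lowest library, it was called lower (log2 fold change -0.20, edgeR adjusted p = 0.0172). Without XWT 1, the highest library, it was not called (log2 fold change -0.0065, edgeR adjusted p = 0.965). Ftl1 stood at 4485, 5144 and 4271 CPM in XWT and at 4410, 4776 and 4597 CPM in XKO. These groups overlapped, with a log2 fold change of -0.01 and an interval from -0.18 to 0.16 (edgeR adjusted p = 0.932). Its sign depended on the scaling, being 0.06 with library size alone.

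Tfrc rose, the only one of the 10 to pass the test. Tfrc (ENSMUSG00000022797, chromosome 16 from 32608920 to 32632794, plus strand) encodes the receptor that takes up transferrin-bound iron. It stood at 129, 115 and 128 CPM in XWT and at 148, 149 and 144 CPM in XKO. All XKO libraries lay above all XWT libraries. The level was 1.19-fold higher, a log2 fold change of 0.25 with a standard error of 0.067 and an interval from 0.10 to 0.39 (edgeR adjusted p = 0.0262). The fold changed little without any 1 library (log2 0.19 to 0.27), but the call ended without XKO 1, XKO 2 or XKO 3 (edgeR adjusted p = 0.12, 0.138 and 0.0942).

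Base composition moved with this result. When tested genes were divided into 5 equal groups by GC content, the group with the lowest (28.3% to 43.6%) had a median log2 fold change of 0.15 and that with the highest -0.09. Tfrc (39.8% GC), Ireb2 (39.0%) and Slc40a1 (42.0%) are in the lowest group. With each library's trends over gene length and GC content removed, the log2 fold change of Tfrc was 0.07 and not called (edgeR adjusted p = 0.380). What part of the rise of Tfrc goes with base composition was not tested beyond this fit.

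The vesicle transporters differed little. Slc11a1 (ENSMUSG00000026177, chromosome 1 from 74375195 to 74386062, plus strand) encodes NRAMP, which moves iron out of phagosomes; C57BL/6 mice are known to carry a form of this gene with impaired function. It stood at 814, 802 and 736 CPM in XWT and 819, 822 and 796 CPM in XKO, overlapping groups with a log2 fold change of 0.05 and an interval from -0.09 to 0.19 (edgeR adjusted p = 0.626). Slc11a2 (ENSMUSG00000023030, chromosome 15 from 100387898 to 100425072, minus strand) encodes DMT, which passes iron from endosomes to the cytosol. Its XWT libraries had 147, 158 and 153 CPM and its XKO libraries 157, 155 and 153 CPM. The groups overlapped, and the interval of the log2 fold change ran from -0.11 to 0.15 around 0.02 (edgeR adjusted p = 0.849).

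Export pointed the other way in every library, without passing the test. Slc40a1 (ENSMUSG00000025993, chromosome 1 from 45908068 to 45926523, minus strand), the gene of ferroportin, the known iron exporter of cells, stood at 66.1, 68.3 and 69.3 CPM in XWT and at 59.4, 60.7 and 59.6 CPM in XKO. All 3 XKO libraries were below all 3 XWT libraries. The log2 fold change was -0.18 with an interval from -0.32 to -0.05 (edgeR unadjusted p = 0.0127, adjusted p = 0.0724). With library size alone it was -0.11 (edgeR adjusted p = 0.249). With length and GC trends removed it was -0.35 and called (edgeR adjusted p = 0.00434), Slc40a1 being in the low-GC group whose median was 0.15.

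**Figure D2:**
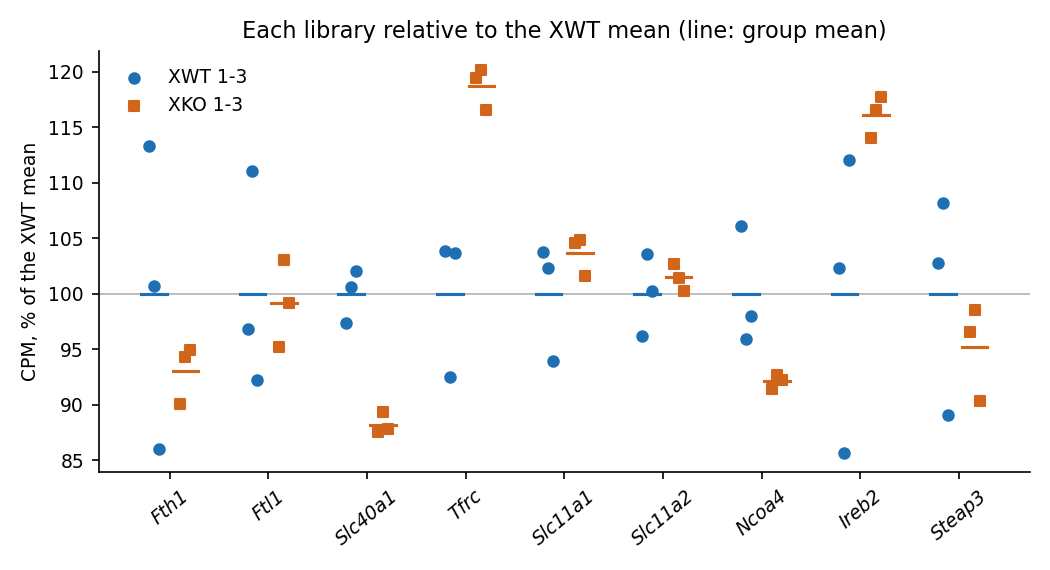
CPM of each library as a percentage of the gene's XWT mean, for 9 iron genes (circles XWT 1-3, squares XKO 1-3, lines group means; the axis does not start at 0). XKO squares lie above every XWT circle for Tfrc and Ireb2 and below every circle for Slc40a1 and Ncoa4.

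Import was also set against export within each library, which needs no scaling between libraries. For each Slc40a1 read, the XWT libraries held 1.95, 1.68 and 1.85 Tfrc reads, and the XKO libraries held 2.49, 2.45 and 2.42. The 3 XKO ratios were all higher. This separation, and with it the p-value below, follows from those of Tfrc and Slc40a1 given above. It is not separate evidence. On the log2 scale the means were 0.87 ± 0.11 in XWT and 1.30 ± 0.020 in XKO (SD, n = 3 each), a difference of 0.43 (exact two-sided permutation test over 20 splits, p = 0.10, the smallest that 3 against 3 can give). The difference was 0.37 to 0.48 without any 1 library. With length and GC trends removed, the fitted log2 fold changes of Tfrc (0.07) and Slc40a1 (-0.35) differed by 0.42. The ratio of Fth1 to Ftl1 reads showed no such separation. It was 5.41, 4.19 and 4.31 in XWT and 4.37, 4.23 and 4.42 in XKO, a log2 difference of -0.09 (exact two-sided permutation test, p = 0.90) that became 0.03 without XWT 1.

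**Figure D3:**
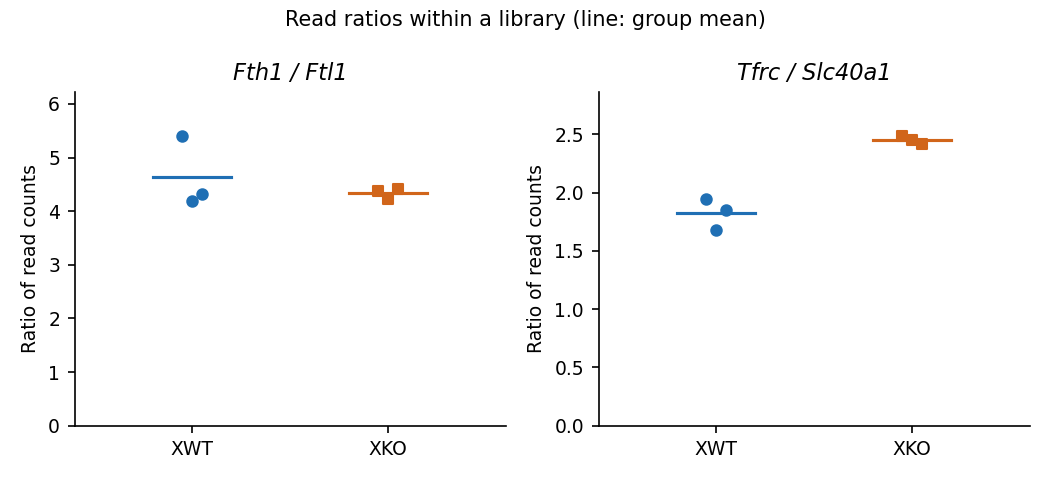
Read ratios within each library, Fth1 to Ftl1 (left) and Tfrc to Slc40a1 (right), with points for the 3 libraries of a group and a line for the mean; both axes start at 0. The Tfrc to Slc40a1 ratio is at most 1.95 in XWT and at least 2.42 in XKO, while XWT 1 alone stands high for Fth1 to Ftl1 at 5.41.

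Ferritin turnover and iron sensing moved within narrow limits. Ncoa4 (ENSMUSG00000056234, chromosome 14 from 32159865 to 32179855, plus strand) encodes the receptor that delivers ferritin to lysosomes so that its iron is freed. It stood at 210.2, 189.9 and 194 CPM in XWT and at 181, 184 and 183 CPM in XKO. The XKO libraries were all lower. The log2 fold change of -0.12 (interval -0.26 to 0.02) did not pass the test (edgeR adjusted p = 0.230). It depended on the scaling, being -0.05 with library size alone (edgeR adjusted p = 0.582). With length and GC trends removed it was -0.22 and called (edgeR adjusted p = 0.0141). Ireb2 (ENSMUSG00000032293, chromosome 9 from 54863789 to 54912530, plus strand), which encodes an iron regulatory protein that is degraded when iron is plentiful, stood at 88.1, 73.8 and 96.6 CPM in XWT and at 98.3, 100.4 and 101 CPM in XKO. XKO values were all above XWT values, with XWT 3 and XKO 1 the closest pair. The log2 fold change was 0.22 with an interval from 0.03 to 0.40 (edgeR unadjusted p = 0.0259, adjusted p = 0.110). It was called without XWT 3 (0.30, edgeR adjusted p = 0.0116) and with quality weights per library (limma, 0.24, adjusted p = 0.0276), and was 0.00 with length and GC trends removed.

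Of the ferrireductases among the 10 genes, only Steap3 was detected. Such enzymes reduce iron so that it can cross membranes. Steap3 (ENSMUSG00000026389, chromosome 1 from 120190757 to 120272705, minus strand) acts in endosomes after transferrin uptake. It stood at 75.3, 79.3 and 65.3 CPM in XWT and 70.8, 72.2 and 66.2 CPM in XKO. The groups overlapped, and the log2 fold change of -0.07 had an interval from -0.24 to 0.10 (edgeR adjusted p = 0.573). Steap4 (ENSMUSG00000012428, chromosome 5 from 7960457 to 7982213, plus strand) had 0 reads in all 6 libraries, which allows up to 3 counts, or 0.0960 to 0.111 CPM, in each.

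In all, 9 of the 10 genes passed the filter on low counts, 1 was called higher and 0 lower by edgeR at an adjusted p under 0.05. DESeq2 and limma-voom gave the same counts, and at an unadjusted p under 0.05 edgeR had 2 higher and 1 lower. Among all 14333 genes tested, 6.00% were called higher and 7.99% lower, so that 42.9% of calls were higher, or 60.7% with library size alone. Libraries of XKO and XWT were fully separated for 4 of the 9 (Tfrc and Ireb2 higher, Slc40a1 and Ncoa4 lower), against 36.2% of all genes tested. The median log2 fold change of the 9 was -0.01, and 0.00 over all tested genes. Every fitted value of the 9 lay between -0.18 and 0.25 on the log2 scale.

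**Figure D4:**
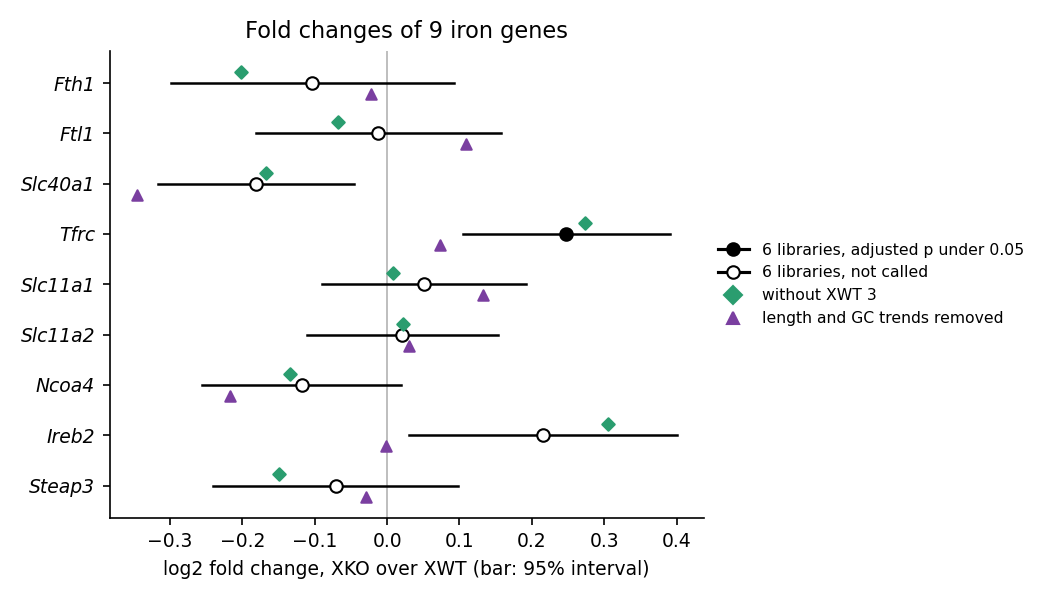
Log2 fold change of XKO over XWT for 9 iron genes with 95% intervals (black when called, white when not), beside the value without XWT 3 (green diamonds) and with length and GC trends removed (purple triangles). Removal of the trends moved Tfrc from 0.25 to 0.07, Ireb2 from 0.22 to 0.00 and Slc40a1 from -0.18 to -0.35.

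A further 50 genes of iron and haem handling spanned -3.39 to 1.54 on the log2 scale. Of the 38 tested, 9 rose and 3 fell, 26 were not called, and the median log2 fold change was -0.04. Genes of mitochondrial iron use and haem synthesis had 4 of 10 tested members higher and 0 lower by edgeR. Cisd2, which encodes an iron-sulfur protein, rose from 53.0 ± 2.26 to 68.8 ± 0.80 CPM. Slc25a37, the mitochondrial iron importer mitoferrin, rose from 110.0 ± 20.2 to 156 ± 2.31 CPM (SD, n = 3 each; edgeR adjusted p = 0.00190 and 0.00913). Alas1, the first enzyme of haem synthesis, named after its values were seen, also rose (log2 fold change 0.24, edgeR adjusted p = 0.0364).

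Among 10 tested genes of haem recycling, Flvcr1, a haem exporter, was the only one called and rose from 56.5 ± 4.21 to 73.0 ± 1.78 CPM (SD, n = 3 each; edgeR adjusted p = 0.00397). Hif1a, an oxygen- and iron-sensitive transcription factor, rose by 0.42 on the log2 scale (edgeR adjusted p = 0.00885), a call that ended without XKO 3, and was the only call of 4 in its group. The iron chaperone Pcbp1 was not called, with an interval from -0.21 to 0.09. Hfe, which modulates the hepcidin signal and transferrin uptake, fell from 121 ± 8.27 to 91.7 ± 6.19 CPM (SD, n = 3 each; edgeR adjusted p = 0.00321). It was the only tested gene of the hepcidin group.

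**Figure D5:**
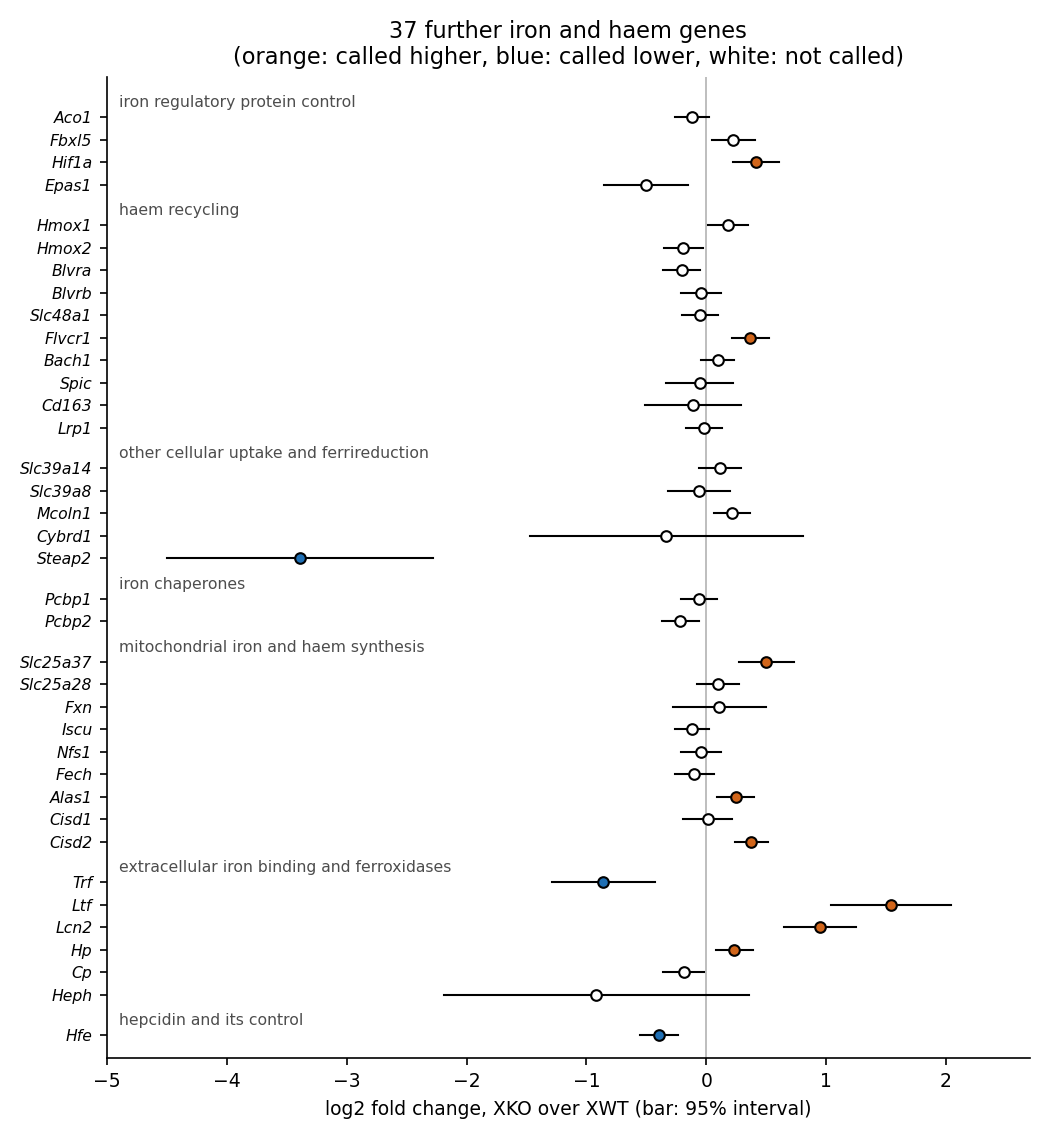
Log2 fold changes of XKO over XWT with 95% intervals for 37 tested genes of the wider iron and haem list, grouped by role (orange called higher, blue called lower, white not called). The 3 orange points of the mitochondrial group lie between 0.24 and 0.50, and Steap2 stands apart at -3.39.

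Of 6 tested genes of extracellular iron binding and ferroxidases, 3 rose, 1 fell and 2 were not called (Cp, log2 fold change -0.19, edgeR adjusted p = 0.127, and Heph, -0.92, edgeR adjusted p = 0.317, both named after their values were seen). Ltf, lactoferrin, rose from 0.96 ± 0.20 to 2.79 ± 0.17 CPM, and Lcn2, which binds bacterial iron carriers, from 13.4 ± 3.07 to 25.7 ± 2.43 CPM (SD, n = 3 each; edgeR adjusted p = 0.000635 and 0.000713). Both are also on the list of 10 neutrophil markers, of which 7 of 9 tested rose and 0 fell. The summed level of the list was 69.4 to 82.4 CPM in XWT and 98.5 to 105.8 in XKO. These counts and sums include Ltf and Lcn2. Apart from them, Camp (log2 fold change 1.49), Ngp (1.14), S100a8 (0.90), S100a9 (0.89) and Mmp8 (0.78) rose. Mpo (0.30) and Mmp9 (-0.09) were not called. Hp, the haemoglobin-binding haptoglobin, named after its values were seen, rose by 0.24 on the log2 scale (edgeR adjusted p = 0.0463). Trf, transferrin, fell from 5.61 ± 1.68 to 3.08 ± 0.089 CPM (SD, n = 3 each; edgeR adjusted p = 0.0130), a call lost without XKO 1 or XKO 3 (edgeR adjusted p = 0.0516 and 0.0621). Steap2, from the group of other cellular uptake and ferrireduction, had 21, 25 and 17 reads in XWT and 2 in each XKO library. The ratio of XKO to XWT was 0.0906 (95% counting interval 0.0320 to 0.208). Markers of fibroblasts and stroma fell between the same groups in 10 of 10 tested members of 13 (summed level 692 to 800.2 CPM in XWT, 67.2 to 81.8 in XKO). The part of these cell types in the changes of Ltf, Lcn2, Trf and Steap2 was not tested.

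All 8 macrophage markers were tested. By edgeR, 1 was lower (Lyz2, which fell by 1.13 on the log2 scale), 0 higher and 7 not called, and 4 were lower and 0 higher at an unadjusted p under 0.05. Their median log2 fold change was -0.17, and 7 of the 8 fits lay below 0. Of the 8, 3 were fully separated between groups, all lower in XKO, against 36.2% of all genes tested, in either direction. Adgre1 (log2 fold change -0.20) was called lower by DESeq2 (adjusted p = 0.0197) and not by edgeR (adjusted p = 0.0677). The summed level was 39551 to 47892 CPM in XWT and 25278 to 26948 CPM in XKO, and without Lyz2 it was 12232 to 13548 and 11478 to 12034 CPM. Of 8 hepatocyte markers 7 were at 0 in every library (Alb, Apoa1, Ttr, Serpina1a, Fgb, Tat and Cyp3a11), and of 8 erythroid markers 5 were at 0, among them Hbb-bs, Hba-a1, Hba-a2 and Slc4a1. Of 8 proliferation genes, all tested, 0 rose and 1 fell by edgeR (2 lower and 0 higher at an unadjusted p under 0.05), with a summed level of 922 to 934 CPM in XWT and 849.7 to 952 CPM in XKO. What part proliferation, macrophage content, or stromal, neutrophil or other cells have in the values of the 10 genes, Tfrc included, was not tested.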

How the data were processed

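RNA libraries (NEBNext Ultra kit on Trizol-extracted RNA, per the labels' protocols) gave 1 deposited table. It holds raw counts, whole numbers for each Ensembl gene, per the file headers. The authors also deposited FPKM, used here only to order genes, group means of scaled counts (a signal, not used), and a log2 fold change with a p-value and adjusted p-value, used as an alternative. Bowtie 0.12.2 and the builds mm8 and mm10 appear, without roles, per the submitters' processing notes. No source used here names the counting program or its strand setting. Table coordinates matched GENCODE M21 (GRCm38) for 98.3% of shared IDs, not for Fth1.

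Counts of 14333 genes kept by filterByExpr were scaled by TMM and fitted in edgeR 4.0.16 (R 4.3.3), robust quasi-likelihood, XKO against XWT, 4 residual degrees of freedom, Benjamini-Hochberg over all tested genes, threshold 0.05. Standard errors are the fold change over the root of F, intervals are 95%. Scripts were tested on simulated counts, where 30% of 1.25-fold, 64% of 1.5-fold, 72% of 2-fold and 96% of 4-fold changes were recovered. The changed genes were drawn from all tested genes, at any level. The lowest count of a detected member, 1782 reads, carries 2.37% counting error.

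The named genes are the 10 members, Xbp1, and up to 3 called genes with the smallest p of each group of the wider list (the most abundant where none was called); 1 gene that this rule names is not reported here. Members and lists were chosen with earlier results of these data known. Alternatives were other scalings, filters, DESeq2 1.42.0, limma 3.58.1 voom, a replicate block and leaving out each library. Chosen after seeing the data were quality weights, length and GC trends, and the authors' deposited table.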

Additional observations from a re-analysis of the deposited data

How the results depend on the processing

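Of 144 values of the 9 tested iron genes under 16 alternatives, 129 kept their direction and side of the threshold. The count of genes called higher among the 10 was 1. It was 0 with length and GC trends removed, 2 with quality weights, and 0 to 2 without any 1 library. The count called lower was 0, became 2 with the trends removed (Slc40a1 and Ncoa4), and was 0 to 1 without any 1 library. For the wider list, 9 higher became 5 to 10 and 3 lower became 2 to 7 without any 1 library; lower calls were 5 without a count filter, 6 with quality weights and 6 with the trends removed. Over all genes, 2005 calls became 806 to 4237 without any 1 library (4237 without XWT 3), and library size alone moved the higher share of calls from 42.9% to 60.7%.

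Directions that turned were all of uncalled values. Ftl1 was 0.058 with library size alone, 0.11 with the trends removed, and -0.068 to 0.068 without any 1 library. Slc11a2 was -0.0086 to 0.045 without any 1 library, and Ireb2 -0.0019 with the trends removed. Pcbp1 was 0.0080 with library size alone, 0.052 with the trends removed, and -0.10 to 0.0052 without any 1 library. The log2 difference of Fth1 to Ftl1 ranged from -0.15 to 0.030 and that of Tfrc to Slc40a1 from 0.37 to 0.48 without any 1 library. The causes were not tested. With the replicate block the log2 fold change of Tfrc was 0.25 and still called, and no member's call changed. Same-numbered libraries did not deviate together (correlations -0.04, -0.04 and -0.05). Deviations were taken from each group's mean over few libraries, so these values cannot tell whether the numbers pair the samples. Depth limits Steap2 and the undetected Steap4.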

Other observations

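Reads of ferritin copies were few beside their parent genes. The 3 rows named as Ftl pseudogenes together held 1.91% to 2.58% of the Ftl1 count in each library, and the 2 rows named as Fth pseudogenes 0 to 5 reads. Added to their parents, they left the log2 difference of the Fth1 to Ftl1 ratio at -0.08 against -0.09. No source used here says how the counting divided reads between Ftl1 and these copies.

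RefSeq promoter windows (GRCm38.p6, from upstream of to just past a gene's start) were found for 8 of the 10 genes, in 15 windows. Neither the core of the unfolded protein response element, TGACGTG, nor the ER stress response element, CCAAT and CCACG parted by 9 bases, was in any of them on either strand. Among all 32851 windows they were in 2.01% and 0.119%. This says only that these letters are not in these windows.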
